A study of Homo sapiens with 9 samples.

Results

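The unfolded protein and integrated stress genes are a set of 32 genes that cells use when proteins fold poorly in the endoplasmic reticulum or when amino acids run short. They were chosen by name, through the RefSeq transcript that each array probe carries, and not by a filter on their values. Earlier results of these data were known when the set was chosen. The array held 37 probes for them among 42405 gene probes. For 31 of the 32 genes at least 1 probe stood well above background on every array of some group, and these 31 were tested among 21814 genes.

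A2780 human ovarian carcinoma cells were left untreated or were incubated for 24 h with DIG-MSK at 8 nM or at 80 nM. Each group had 3 arrays, all from the same cell line kept in the same serum-containing medium, and the study's methods describe the RNAs as coming from independent biological replicates. DIG-MSK is an analogue of mithramycin, an antibiotic that binds GC-rich DNA, and the arrays were made to see which transcripts respond to it. A2780 is 1 established line, so the values describe that line and not ovarian tumours in general.

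Unfolded proteins in the endoplasmic reticulum are sensed by 3 membrane proteins, which the genes ERN1, EIF2AK3 and ATF6 encode. ERN1 (IRE1) splices the mRNA of XBP1, ATF6 is cut to release a transcription factor, and EIF2AK3 (PERK) phosphorylates the translation factor eIF2. Phosphorylated eIF2 lowers general protein synthesis and favours translation of ATF4, and other kinases feed the same step when amino acids are short, hence the name integrated stress response. XBP1 and ATF6 mainly induce chaperones, oxidoreductases and degradation factors, whereas ATF4 mainly induces amino acid enzymes, transporters and DDIT3 (CHOP). Much of this control is exerted on splicing, cleavage and translation, which these arrays do not measure.

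The arrays of untreated cells and of 8 nM DIG-MSK shared 1 slide and 1 scan, and those of 80 nM lay on another slide with another scan, so at 80 nM the effect of the drug and the difference between slides cannot be told apart. The 75th percentile of the processed intensity ranged from 832 to 1170, and between 24833 and 27125 probes were well above background on an array. Correlations between arrays of 1 group were 0.989 to 0.996. Replicate 2 of 8 nM stood slightly apart, with correlations of 0.989 and 0.990 with its own group, against 0.996 between the other two, and with the fewest probes above background. Of the epithelial and ovarian carcinoma markers, KRT8, KRT18, KRT19 and EPCAM were well above background on 9 of 9 arrays, PAX8 on 3, and CDH1, WT1 and MUC16 on 0, while the mesenchymal markers VIM and CDH2 were detected on all 9. Of the leukocyte markers, PTPRC and CD14 were detected on 9 arrays and CD3E on 3; of 3 endothelial markers, CDH5 was detected on 9 and PECAM1 and VWF on 0; the 3 fibroblast markers PDGFRB, DCN and THY1 were detected on 9. Between untreated cells and 80 nM the mean log2 level of CDH2 went from 0.19 to -2.14 and that of DCN from -1.90 to -3.30, and the part of such shifts in the results was not tested.

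Several members carry in their promoters the endoplasmic reticulum stress element (ERSE), the sequence that ATF6 and XBP1 use, and these sites are shown because the element is the hallmark of that branch. An ERSE was searched as CCAAT, any 9 bases and CCACG, and an ERSE-II as ATTGG, any 1 base and CCACG, on both strands of the RefSeq promoters of GRCh38.p14, from 250 bases before to 50 bases after each start site. An ERSE was present in 8 of the 31 member genes with a promoter in that table (25.8%), against 25 of 27305 genes in all (0.0916%). Capitals mark the ends of each site that were matched, read 5′ to 3′ on the strand named:
HSPA5, chr9:125241391-125241409, minus strand: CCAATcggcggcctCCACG
PDIA6, chr2:10812853-10812871, minus strand: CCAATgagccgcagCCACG
ERO1B, chr1:236282183-236282201, plus strand: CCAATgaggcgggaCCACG
CRELD2, chr22:49918554-49918572, minus strand: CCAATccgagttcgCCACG
HSP90B1, first site, chr12:103930216-103930234, plus strand: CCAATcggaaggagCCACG
HSP90B1, second site, chr12:103930321-103930339, minus strand: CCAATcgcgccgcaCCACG
CALR, chr19:12938384-12938402, minus strand: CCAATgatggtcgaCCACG
CANX, chr5:179698778-179698796, plus strand: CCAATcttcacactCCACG
XBP1, chr22:28800603-28800621, minus strand: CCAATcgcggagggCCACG
Of these genes, HSPA5, PDIA6, ERO1B and CRELD2 were up-regulated at 80 nM, HSP90B1, CALR and XBP1 were not called, and CANX was down-regulated by the probe used.

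ERSE-II was present in 3 of the 31 genes (9.68%), against 19 genes in all (0.0696%), and none of the 3 genes was called at either concentration:
HYOU1, first site, chr11:119057274-119057284, plus strand: ATTGGaCCACG
HYOU1, second site, chr11:119057380-119057390, plus strand: ATTGGaCCACG
HERPUD1, chr16:56932025-56932035, plus strand: ATTGGgCCACG
SDF2L1, chr22:21642114-21642124, minus strand: ATTGGtCCACG

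The ERSE lay close to the start site both of a called and of an uncalled gene, as the 250 bases upstream of HSPA5, which rose at 80 nM, and of XBP1, which was not called, show with the ERSE in capitals:
HSPA5, chr9:125241344-125241593, minus strand: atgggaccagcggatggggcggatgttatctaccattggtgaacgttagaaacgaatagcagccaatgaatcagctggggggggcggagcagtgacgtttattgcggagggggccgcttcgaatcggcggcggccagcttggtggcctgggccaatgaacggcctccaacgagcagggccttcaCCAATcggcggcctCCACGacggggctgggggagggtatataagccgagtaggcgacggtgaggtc
XBP1, chr22:28800570-28800819, minus strand: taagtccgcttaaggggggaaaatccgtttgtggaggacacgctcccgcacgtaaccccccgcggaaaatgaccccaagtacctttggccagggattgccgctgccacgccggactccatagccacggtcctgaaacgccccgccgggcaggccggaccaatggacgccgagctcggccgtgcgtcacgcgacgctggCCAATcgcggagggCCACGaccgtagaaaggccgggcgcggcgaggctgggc
The ERSE lay 66 to 48 bases before the start site in HSPA5 and 52 to 34 bases before it in XBP1. The letters TGATGNAAT, searched for the C/EBP-ATF element of ATF4 targets, were in none of the 31 member promoters and in 1.22% of all genes. This search fixed the last base at T, and sites with another base there were not counted. The ASNS promoter held tgatgaaac. Those of CHAC1 and HERPUD1 held gttgcatca, which differs from the search only at that base when read on the other strand. The result therefore says only that the exact letters were not in this window, and not that the element was absent. A match is a description of the sequence, and binding was not measured here.

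Gene levels are log2 ratios of a probe's processed intensity to its array's 75th percentile, so that a difference of 1 is a doubling of intensity. Up-regulated means a change of 1.5-fold or above and down-regulated one of 0.67-fold or below, in both cases with limma's unadjusted p under 0.05. The adjusted p printed beside a value is the Benjamini-Hochberg value over all 21814 genes. Levels are compared between arrays for 1 probe, never between probes. In bulk RNA, fewer cells that express a gene and less RNA per cell cannot be told apart.

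At 8 nM DIG-MSK the stress genes as a group were close to their untreated levels. Of the 31 genes, 0 were up-regulated, against 4.25% of all genes, and 1 was down-regulated, against 2.84% of all genes. With limma's unadjusted p alone, whatever the size of the change, 3 members were higher and 7 lower. The median log2 change was -0.10, and that over all genes was -0.06. All 3 arrays at 8 nM lay above all 3 untreated arrays for 3 genes and below them for 7. This count and that by unadjusted p were not made over all genes. By limma's adjusted p under 0.05, whatever the fold, 0 members were higher and 2 lower, and 13.6% of all genes passed in either direction.

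At 80 nM DIG-MSK 10 of the 31 genes were up-regulated, against 18.8% of all genes, and 1 was down-regulated, against 16.3% of all genes. The 10 were NUPR1, PDIA4, ERO1B, DNAJB9, PPP1R15A, CRELD2, PDIA6, HSPA5, PSAT1 and SEL1L, the 1 was CANX, and all 11 also had an adjusted p under 0.05. The median log2 change was 0.29, and that over all genes was 0.08. The arrays at 80 nM lay above all untreated arrays for 16 genes and below them for 3, a count not made over all genes. By limma's adjusted p under 0.05, whatever the fold, 13 members were higher and 1 lower, and 59% of all genes passed in either direction. Rises were found among chaperones, oxidoreductases and other targets, and none of the sensors and only NUPR1 among the transcription factors was called.

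These 10 rises depended on how the arrays were scaled. With scaling to the 10 spike-in probes in place of the 75th percentile, the median over all genes at 80 nM moved by -0.28, to -0.20, on the log2 scale, and of the members only NUPR1 remained up-regulated and CANX down-regulated. The members' median minus the median of all genes was 0.21 under both scalings. Under the spike-in scaling the other 9 genes had log2 changes from 0.32 for PSAT1 and SEL1L to 0.53 for PDIA4, still above 0 but not called. A rank among all genes does not depend on such scaling, and by it the 10 genes lay between the 80.9th percentile (SEL1L) and the 96.9th percentile (NUPR1) of the change at 80 nM.

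**Figure D1:**
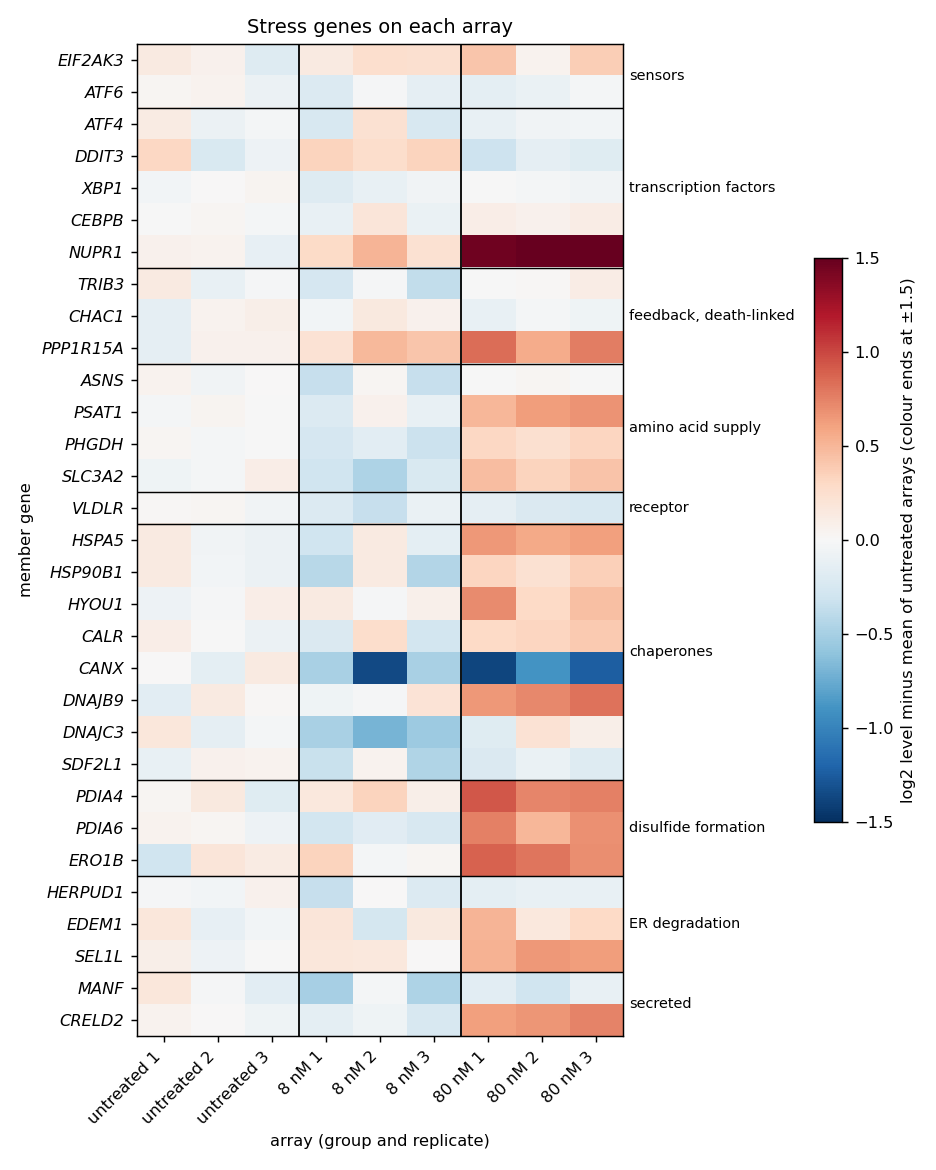
Level of the 31 tested genes (rows, grouped by role) on the 9 arrays (columns), as log2 level minus the mean of the 3 untreated arrays. Red cells are higher and blue cells lower than untreated. NUPR1, PDIA4, ERO1B and DNAJB9 are red on all 3 arrays at 80 nM, CANX is blue on all arrays at 8 and 80 nM, and DNAJC3 is blue on all 3 arrays at 8 nM.

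**Figure D2:**
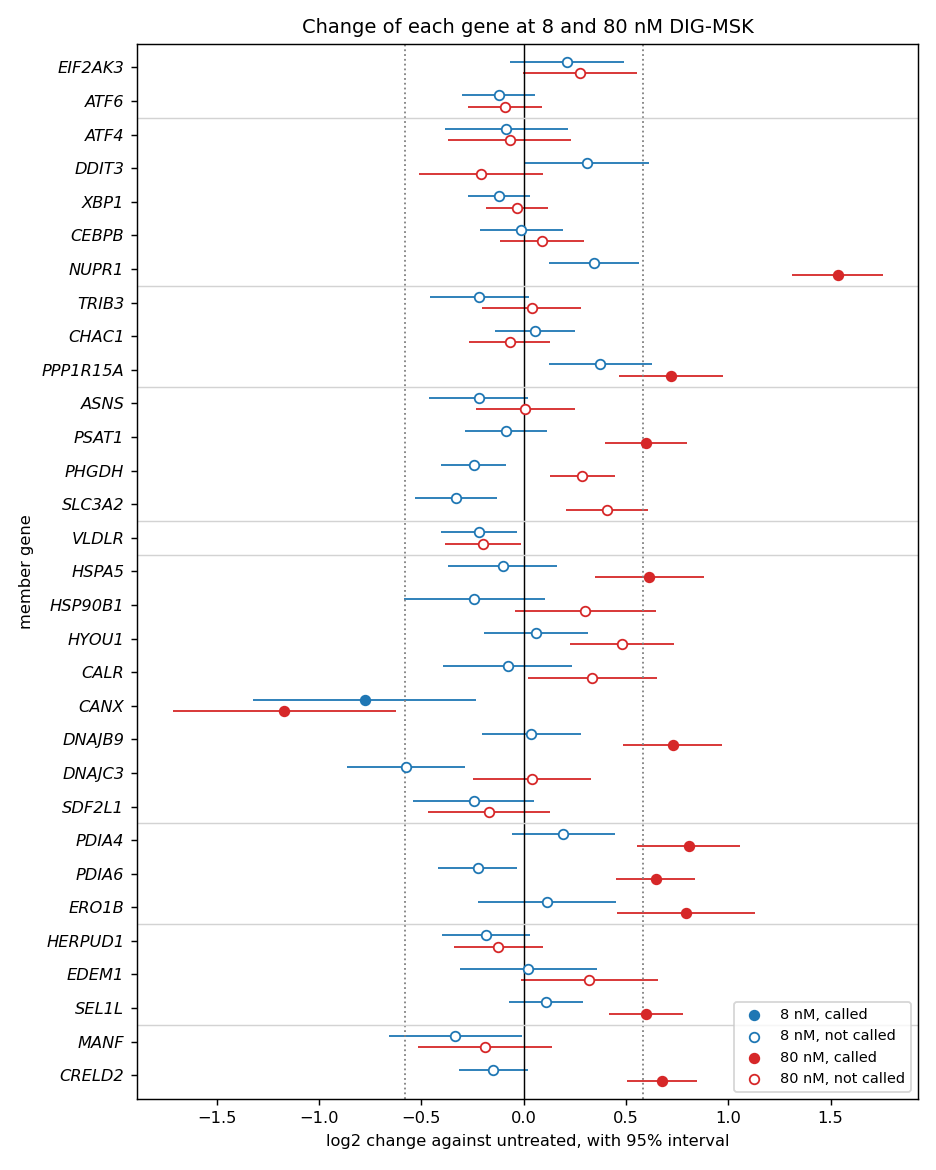
Log2 change of each gene against untreated with its 95% interval from limma, at 8 nM (blue) and 80 nM (red), with filled points for called genes and dotted lines at the 1.5-fold and 0.67-fold limits. At 8 nM only CANX is called, and at 80 nM 10 genes lie past the upper line and CANX past the lower one. Both comparisons use the same 3 untreated arrays.

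The sensors differed little between the groups. EIF2AK3, the PERK kinase, measured -3.14, -3.21 and -3.46 in untreated cells, -3.13, -3.01 and -3.02 at 8 nM and -2.85, -3.22 and -2.90 at 80 nM. The arrays at 80 nM overlapped the untreated ones, and the log2 change was 0.28 with a 95% interval that ran from just under 0 to 0.56. ATF6, the sensor that is itself cleaved into a transcription factor, had a log2 change of -0.09 at 80 nM (95% interval -0.27 to 0.09). ERN1, the IRE1 nuclease, was well above background on 1 of the 9 arrays, at 80 nM, and was not tested. Its levels were -6.06, -6.20 and -5.87 in untreated cells, -6.14, -6.34 and -5.97 at 8 nM and -6.20, -5.51 and -5.52 at 80 nM, most of which are only bounds.

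Among the transcription factors, ATF4, the central factor of the integrated response, measured 7.43, 7.23 and 7.28 in untreated cells, 7.07, 7.54 and 7.07 at 8 nM and 7.21, 7.26 and 7.27 at 80 nM. These groups overlapped, and the log2 change at 80 nM was -0.07 (95% interval -0.37 to 0.23). XBP1 mRNA, whose spliced form encodes the active factor, changed by -0.03 at 80 nM (95% interval -0.18 to 0.12), and which form was present was not measured. CEBPB, a C/EBP factor that pairs with ATF4, changed by 0.09 (95% interval -0.11 to 0.29).

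DDIT3, the CHOP factor linked to death under prolonged stress, measured -1.44, -1.98 and -1.83 in untreated cells, -1.42, -1.48 and -1.42 at 8 nM and -2.06, -1.88 and -1.93 at 80 nM. The 3 arrays at 8 nM were tightly grouped and all above those at 80 nM, while the untreated arrays spread over both. DDIT3 was not called at either concentration against untreated cells. Between 80 and 8 nM its log2 difference was -0.52 ± 0.13 (SE), adjusted p = 0.0097, which is 0.698-fold and misses the fold limit of 0.67.

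NUPR1, a small chromatin-associated protein induced by many stresses and an ATF4 target, showed the largest rise among the members at 80 nM. Its level was 4.67, 4.66 and 4.48 in untreated cells, 4.89, 5.11 and 4.84 at 8 nM and 6.06, 6.14 and 6.21 at 80 nM. The 3 groups did not overlap and were ordered by concentration. At 80 nM the change was 2.90-fold, a log2 change of 1.53 ± 0.10 (SE, adjusted p = 4.9e-06). At 8 nM it was 0.34 ± 0.10, below the fold limit, with an adjusted p of 0.051.

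The feedback and death-linked targets did not move as a block. PPP1R15A (GADD34), the phosphatase subunit that restores eIF2 after stress, measured -2.42, -2.22 and -2.22 in untreated cells, -2.07, -1.80 and -1.87 at 8 nM and -1.45, -1.73 and -1.52 at 80 nM. As with NUPR1, the 3 groups did not overlap and followed the concentration. The change at 80 nM was 1.65-fold (log2 0.72 ± 0.11, adjusted p = 0.00069), and that at 8 nM was 0.37 with an adjusted p of 0.058. TRIB3, a pseudokinase that restrains ATF4 signalling, changed by 0.04 at 80 nM, and CHAC1, which degrades glutathione, by -0.07, both with intervals that span 0. A second CHAC1 probe gave 0.49 (adjusted p = 0.022 in a fit over probes), below the fold limit.

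Of the amino acid genes, PSAT1, the aminotransferase of serine synthesis, was 5.46, 5.53 and 5.49 in untreated cells, 5.29, 5.55 and 5.38 at 8 nM and 5.99, 6.12 and 6.17 at 80 nM. The arrays at 80 nM were all above the other 6, with a change of 1.52-fold (log2 0.60 ± 0.09, adjusted p = 0.00053). PHGDH, the first enzyme of the same route, measured 4.70, 4.65 and 4.67 in untreated cells, 4.42, 4.52 and 4.35 at 8 nM and 4.98, 4.91 and 4.99 at 80 nM. Its 3 groups did not overlap, the 8 nM arrays being lowest. The log2 change at 8 nM was -0.24 (adjusted p = 0.052). At 80 nM it was 0.29 (adjusted p = 0.0073), and neither was called.

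SLC3A2, the heavy chain shared by several amino acid transporters, had the same order. It measured 2.07, 2.11 and 2.24 in untreated cells, 1.84, 1.67 and 1.91 at 8 nM and 2.60, 2.47 and 2.56 at 80 nM. The SLC3A2 change on the log2 scale was -0.33 at 8 nM (adjusted p = 0.041) and 0.41 with 80 nM (adjusted p = 0.0040). Both were short of the fold limit, while between 80 and 8 nM it was 1.67-fold higher and called. ASNS, which makes asparagine and is a textbook ATF4 target, changed by 0.01 at 80 nM (95% interval -0.23 to 0.25). VLDLR, a lipoprotein receptor induced under such stress, measured 0.14, 0.15 and 0.07 in untreated cells, -0.08, -0.23 and 0.02 at 8 nM and -0.02, -0.09 and -0.12 at 80 nM. Both treated groups lay below the untreated arrays, with log2 changes of -0.22 and -0.20 that were not called. A second VLDLR probe, of another transcript (NM_001018056), gave -0.76 at 8 nM (adjusted p = 0.043 in the fit over probes) and, with 80 nM, -0.75 (adjusted p = 0.013). Unlike the probe used, it was past the fold limit of 0.67 at both concentrations, with 0.595-fold at 80 nM.

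Chaperones and co-chaperones gave 2 rises and 1 fall among 8 genes at 80 nM. HSPA5 (BiP), the main chaperone of the endoplasmic reticulum and the usual marker of the response, measured 1.35, 1.16 and 1.13 in untreated cells, 0.92, 1.35 and 1.06 at 8 nM and 1.86, 1.78 and 1.83 at 80 nM. The arrays at 80 nM were all above the others, whereas those at 8 nM overlapped the untreated ones. The rise was 1.53-fold (log2 0.61 ± 0.12, adjusted p = 0.0022). DNAJB9 (ERdj4), a J-domain partner of HSPA5, measured -0.29, 0.01 and -0.11 in untreated cells, -0.20, -0.15 and 0.07 at 8 nM and 0.52, 0.59 and 0.68 at 80 nM. It rose 1.66-fold (log2 0.73 ± 0.10, adjusted p = 0.00051).

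HYOU1, the nucleotide exchange factor for HSPA5, was above all untreated arrays at 80 nM but reached 1.40-fold (log2 0.48, adjusted p = 0.0058) and was not called. The lectin chaperone CALR changed by 0.34 (adjusted p = 0.065) and HSP90B1 (GRP94) by 0.30 (adjusted p = 0.12), each with all 3 arrays at 80 nM above the untreated ones. A second probe of HSP90B1 gave 0.55 (adjusted p = 0.0050 in the fit over probes). SDF2L1, which works with HSPA5, changed by -0.17 with an interval from -0.46 to 0.13.

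DNAJC3 (p58IPK), a co-chaperone and inhibitor of eIF2 kinases, was the member with the smallest adjusted p at 8 nM. It measured 0.91, 0.60 and 0.71 in untreated cells, 0.26, 0.04 and 0.20 at 8 nM and 0.56, 0.96 and 0.83 at 80 nM. All 8 nM arrays were below the other 6, which overlapped each other. The log2 change at 8 nM was -0.58 ± 0.13 (adjusted p = 0.020), or 0.671-fold, just short of the 0.67 limit, and at 80 nM it was 0.04. With any of 4 arrays left out (untreated replicate 2 or 3, 8 nM replicate 1 or 3) DNAJC3 passed the limit and the members down-regulated at 8 nM became 2.

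CANX, a membrane-bound lectin chaperone, was the only member called at 8 nM by the probes that represent the genes. By the probe used it measured 1.03, 0.88 and 1.15 in untreated cells, 0.53, -0.34 and 0.53 at 8 nM and -0.36, 0.13 and -0.22 at 80 nM. Both treated groups lay below the untreated arrays, with a log2 change at 8 nM of -0.78 ± 0.24 (adjusted p = 0.067) and one at 80 nM of -1.17 ± 0.24 (adjusted p = 0.0032). Without replicate 2 of 8 nM the change at 8 nM was -0.49 and was not called, so that array decided the call. A second probe of the same CANX transcript (NM_001746) went the other way at 80 nM. It measured -2.23, -1.97 and -1.98 in untreated cells, -2.37, -2.18 and -2.12 at 8 nM and -1.24, -1.20 and -1.25 at 80 nM. With a log2 change of 0.83 (adjusted p = 0.00017 in the fit over probes), it lay above all untreated arrays. The direction of CANX at 80 nM is therefore not settled by these arrays.

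**Figure D3:**
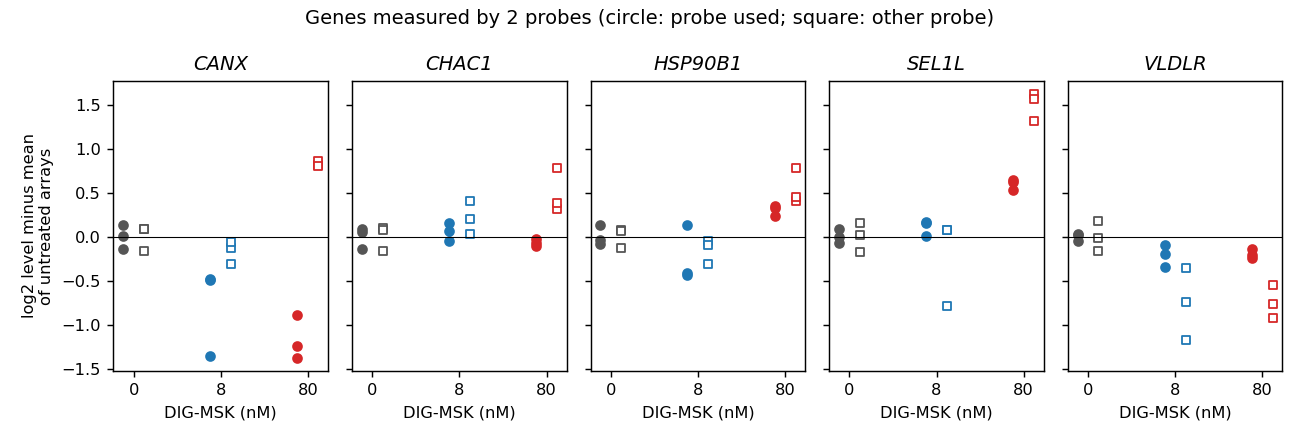
Log2 level minus the mean of the untreated arrays for the 5 genes with 2 probes above background, against the DIG-MSK concentration, with a point for each array. Circles are the probe used for the gene and squares the other probe. The 2 probes of CANX separate in opposite directions at 80 nM, and the other probe of SEL1L rises further than the probe used.

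The genes of disulfide formation were the 1 role in which every member was up-regulated at 80 nM, 3 of 3. PDIA4 (ERp72), an oxidoreductase, measured 2.58, 2.70 and 2.37 in untreated cells, 2.71, 2.88 and 2.64 at 8 nM and 3.48, 3.29 and 3.30 at 80 nM. Its rise was 1.75-fold (log2 0.81 ± 0.11, adjusted p = 0.00036). PDIA6 (P5), of the same family, measured 3.38, 3.36 and 3.25, then 3.06, 3.16 and 3.09 at 8 nM and 4.08, 3.83 and 4.01 at 80 nM. It lay lowest at 8 nM and highest at 80 nM with no overlap, and rose 1.57-fold at 80 nM (log2 0.65 ± 0.08, adjusted p = 0.00029). ERO1B, the oxidase that recharges these enzymes, was dim, with levels of -4.91, -4.43 and -4.48, then -4.27, -4.63 and -4.57 at 8 nM and -3.72, -3.80 and -3.90 at 80 nM. It rose 1.74-fold (log2 0.80 ± 0.15, adjusted p = 0.0019). With normexp background correction the change of ERO1B was 0.39 and was not called. ERO1B was also not called with the authors' deposited log2 values, and none of the 3 genes was called with the spike-in scaling.

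Among the degradation factors, SEL1L, the adaptor of the HRD1 ubiquitin ligase, measured -1.26, -1.41 and -1.35 in untreated cells, -1.17, -1.18 and -1.34 at 8 nM and -0.81, -0.69 and -0.71 at 80 nM. The 80 nM arrays were all above the other 6, with a rise of 1.51-fold (log2 0.60 ± 0.08, adjusted p = 0.00030). The other SEL1L probe gave 2.83-fold (adjusted p = 0.00069 in the fit over probes), the same direction with a larger size. EDEM1, a mannosidase-like factor that directs misfolded glycoproteins to degradation, changed by 0.32 at 80 nM (adjusted p = 0.090). HERPUD1, a membrane component of the same machinery, changed by -0.12 (95% interval -0.34 to 0.09).

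The secreted factors MANF and CRELD2 differed. CRELD2, a secreted protein with a role in folding, measured 3.88, 3.83 and 3.76 in untreated cells, 3.68, 3.76 and 3.59 at 8 nM and 4.44, 4.49 and 4.56 at 80 nM. The arrays at 80 nM were all above the others and the rise was 1.60-fold (log2 0.68 ± 0.07, adjusted p = 0.00011). MANF, a stress-induced neurotrophic factor that also binds HSPA5, measured 5.58, 5.39 and 5.25 in untreated cells, 4.90, 5.38 and 4.94 at 8 nM and 5.25, 5.11 and 5.29 at 80 nM. The MANF groups overlapped, and the log2 change at 80 nM was -0.19 (95% interval -0.51 to 0.14).

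**Figure D4:**
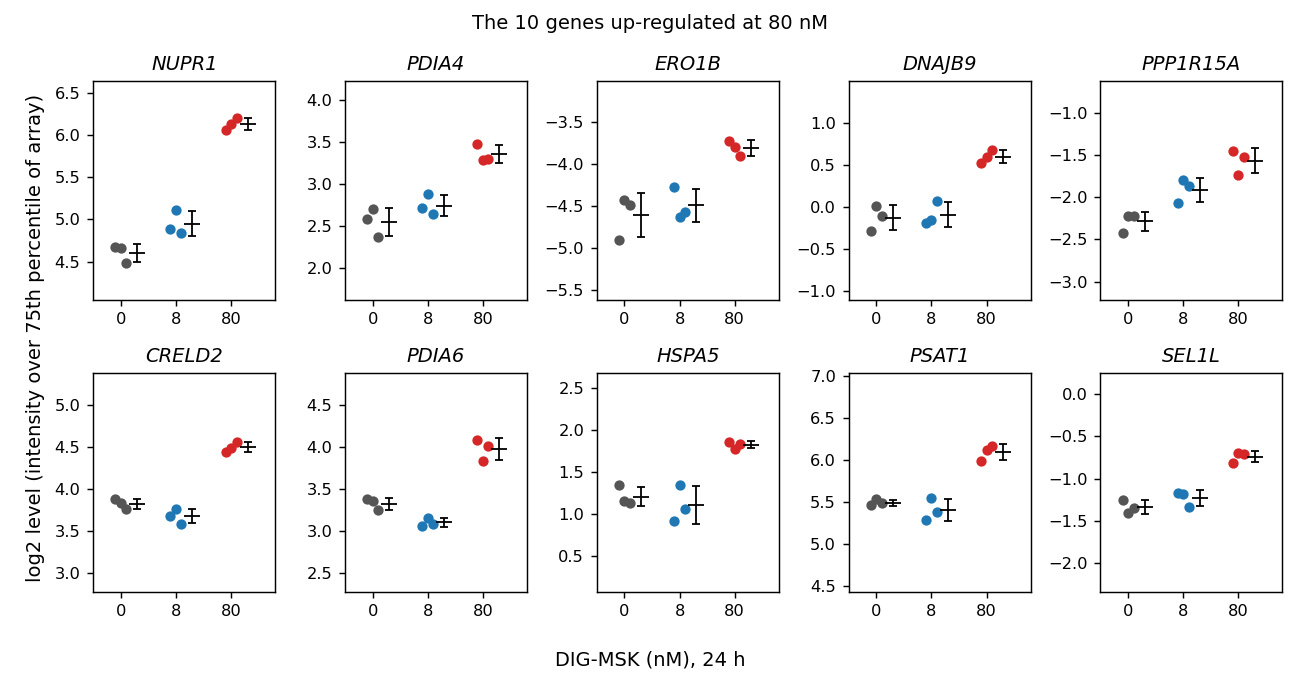
Log2 level of the 10 genes up-regulated at 80 nM on each array, against the DIG-MSK concentration, with a point per array and the mean with its SD (n = 3) beside them. All panels span the same range of log2 units. In each panel the 3 arrays at 80 nM lie above the 3 untreated arrays.

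The rises nearest to the limit were PSAT1 at 1.52-fold, HSPA5 at 1.53-fold and SEL1L at 1.51-fold. PSAT1 was not called without untreated replicate 1 or 80 nM replicate 3, SEL1L without untreated replicate 2 or 80 nM replicate 2, and HSPA5 without untreated replicate 3. With 1 array left out at a time, the count at 80 nM was 9 or 10.

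**Figure D5:**
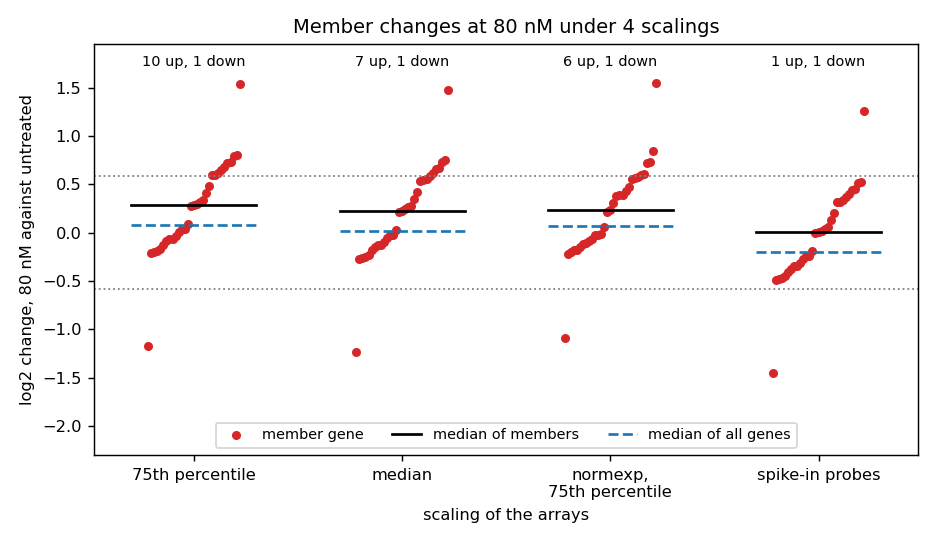
Log2 change at 80 nM against untreated of the 31 members (red points, ordered) under 4 scalings of the arrays, with the median of the members (black line) and of all genes (dashed line); dotted lines are the fold limits. The points move down together with the median of all genes under the spike-in scaling, where 1 member is called up and 1 down.

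The direct comparison of 80 with 8 nM, which shares the 8 nM arrays with the first comparison and spans both slides, gave 10 of 31 members up-regulated, against 19.4% of all genes, and 0 down-regulated, against 14.2%. By limma's unadjusted p alone 17 members were higher and 1, DDIT3, was lower, a count not made over all genes. By limma's adjusted p under 0.05, whatever the fold, 16 members were higher and 1 lower, and 57.5% of all genes passed in either direction. The 10 were NUPR1, PDIA6, CRELD2, SLC3A2, HSPA5, DNAJB9, PSAT1, ERO1B, DNAJC3 and PDIA4. SLC3A2 and DNAJC3, which lay below the untreated arrays at 8 nM, were among them, while PPP1R15A (log2 0.35) and SEL1L (log2 0.49) stayed short of the limit. The median log2 difference was 0.35, and that over all genes 0.12. NUPR1 again led, with 2.28-fold (log2 1.19 ± 0.10, adjusted p = 2.2e-05), followed by PDIA6 with 1.83-fold (log2 0.87 ± 0.08, adjusted p = 6.2e-05). With scaling to the median 5 members were up-regulated and DDIT3 was down-regulated, and with the spike-in scaling NUPR1 was up-regulated and CANX and DDIT3 were down-regulated.

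Other genes of the same pathways were examined from 2 lists that hold no members. Of 42 other genes of the amino acid and eIF2 arm, 2 (4.76%) were up-regulated and 0 down-regulated at 8 nM. There 5 were higher and 6 lower with limma's adjusted p under 0.05 whatever the fold. At 80 nM 6 (14.3%) were up-regulated and 3 (7.14%) down-regulated, with a median log2 change of 0.05. Of 50 other genes of the endoplasmic reticulum, 1 (2%) was up-regulated and 1 (2%) down-regulated at 8 nM, where by that adjusted p 1 was higher and 8 lower. At 80 nM 11 (22%) were up-regulated and 4 (8%) down-regulated, with a median of 0.25. Over all genes 4.25% were up-regulated and 2.84% down-regulated at 8 nM, where 13.6% passed that adjusted p. At 80 nM the shares over all genes were 18.8% and 16.3%, with a median of 0.08.

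At 8 nM the largest rises on these lists were those of GDF15, a stress cytokine (log2 1.73, adjusted p = 1.6e-05), BAX, a pore-forming protein of apoptosis (log2 0.90, adjusted p = 0.0026), and SESN2, a leucine sensor (log2 0.61, adjusted p = 0.00089). All 3 are also known as targets of p53. TRAF2, an adaptor that binds activated IRE1, was the 1 gene called down-regulated, with a log2 change of -0.60 (adjusted p = 0.011).

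At 80 nM the largest rises were those of GDF15 (log2 1.61, adjusted p = 8.7e-07), CTH, which makes cysteine (log2 1.52, adjusted p = 1.3e-06), KDELR3, a receptor that returns chaperones to the endoplasmic reticulum (log2 1.38, adjusted p = 3.7e-05), and PYCR1, of proline synthesis (log2 1.14, adjusted p = 0.00093). TRAF2 fell by 1.86 (adjusted p = 3.5e-06), VEGFA, an angiogenic factor, by 1.54 (adjusted p = 2.4e-05), UGGT1, the glycoprotein folding sensor, by 1.15 (adjusted p = 0.00064) and DDIT4, an inhibitor of mTORC1, by 1.11 (adjusted p = 2.2e-06), all on the log2 scale. Both directions were thus present on each list at 80 nM, as they were over all genes.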

How the data were processed

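The members and lists were chosen with earlier results of these data known. Arrays of 1 colour (Cy3) were scanned and extracted by the authors with Agilent Feature Extraction 10.7.3.1, per the file headers, and the deposited processed intensity is background-corrected but not scaled between arrays. The authors also deposited log2 values per probe, used as an alternative only. Control spots and outlier spots were left out, spots of a probe were averaged, and log2 intensity minus the 75th percentile of each array was analysed. No gene probe was saturated (0 on each array). Probes were kept that stood well above background on each of the 3 arrays of any group, and the probe with the highest mean represented its gene. The RefSeq table (GRCh38.p14) named 25715 of the 27245 probes that carry a RefSeq accession.

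Groups and replicate numbers came from the labels. All 9 arrays were fitted in limma 3.58.1 (R 4.3.3; lmFit, contrasts.fit, eBayes) with Benjamini-Hochberg adjustment over 21814 genes, and second probes in the same fit over the 26434 probes kept. The fit was tested on simulated arrays of 80 nM against untreated. There 56% of true log2 changes of 0.6 and 94% of those of 1 were called in the right direction. Of the unchanged genes 0.851% were called. The simulated noise was normal and independent between genes, and only 100 genes of each size were changed. No slide effect and no scaling step were simulated, so these shares are not error rates of the calls at 80 nM. All members are named; of the other genes, at each concentration up to 4 called rises and 4 called falls of largest size. Alternatives were normexp (offset 50) on the median signals, quantile, median and spike-in scaling, the authors' log2 values, other filters on dim probes, the mean of probes, adjusted p, only the groups compared, each array left out, and the replicate number as a block. Same-numbered untreated and 8 nM arrays deviated together from their group means (correlations 0.113, 0.101 and 0.162), so the numbers may pair these groups. The changes, intervals and p-values printed for the members come from the fit without this pairing. For 80 nM the correlations were -0.12 to 0.02, and the numbers were taken to pair nothing. A further leukocyte marker is not reported here. The number of arrays limits the precision.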

Additional observations from a re-analysis of the deposited data

How the results depend on the processing

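No called member changed direction under any alternative run, but no run used a gene's other probe alone. The second CANX probe went the other way at 80 nM, so these runs do not settle the direction of CANX. The members up-regulated at 80 nM were 10, and 6 with normexp background correction (PSAT1, ERO1B, SEL1L and PPP1R15A lost) and 1 with spike-in scaling. They were 7 with scaling to the median (PSAT1, HSPA5 and SEL1L lost) and 9 with the authors' log2 values (ERO1B lost). Between 80 and 8 nM they were 10, and 5 with scaling to the median and 1 with spike-in scaling; the members down-regulated there were 0, and 1 and 2 under those scalings, and 0 to 1 with 1 array left out (1, CANX, without 8 nM replicate 2). At 8 nM the 1 down-regulated member became 0 with adjusted p, spike-in scaling or the mean of a gene's probes, and ranged from 0 to 2 with 1 array left out; at 80 nM the 1 became 0 with the mean of probes. By construction a scaling shifts all genes of an array alike; for normexp the cause was not tested. Over all genes, spike-in scaling moved the share of up-regulated among the called genes from 60% to 78.7% at 8 nM, from 53.5% to 27.9% at 80 nM and from 57.8% to 22.9% between them, where median scaling gave 45.8%. With the replicate block the members called were the same in all 3 comparisons (0 up and 1 down, 10 and 1, 10 and 0), also in the fit of the untreated and 8 nM arrays alone, chosen after seeing the data. ERN1 was too dim to test, and 3 arrays a group on 2 slides limit every value at 80 nM.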

Other observations

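The promoters of the members were rich in G and C. Over 31 member genes the median GC content of the RefSeq promoter (the mean where a gene has several) was 66.3%, against 58.3% over 27305 genes. A GC box, GGGCGG on either strand, was present in 25 of the 31 members (80.6%) and in 48.3% of all genes. The 27305 genes are all those with a promoter in the table, whether or not they were detected on the arrays. The genes tested on the arrays were not counted alone, so whether the members differ from other detected genes was not tested. Among the members with a promoter in the table, it was present in 7 of the 9 up-regulated at 80 nM, in 16 of the 20 not called and in CANX. The 9 up-regulated members had a median GC content of 64.0% and the 20 not called one of 68.5%.

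By element, 4 of the 11 tested members with an ERSE or ERSE-II were up-regulated at 80 nM, with a median log2 change of 0.34, and 5 of the 19 with neither, with a median of 0.09. No test was made of this difference.

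At 8 nM, replicate 2 lay above replicates 1 and 3 for several members and below them for others. ATF4 measured 7.54 there against 7.07 on both others, CALR 7.79 against 7.32 and 7.26, and ASNS 6.34 against 5.97 on both others. CANX measured -0.34 there against 0.53 on both others, and DNAJC3 0.04 against 0.26 and 0.20. Without replicate 2 the median log2 change of the members at 8 nM was -0.17, and that over all genes was -0.04. ASNS was then at -0.34 (limma's adjusted p = 0.0099), HSP90B1 at -0.43 (adjusted p = 0.015), SDF2L1 at -0.39 (adjusted p = 0.018) and MANF at -0.49 (adjusted p = 0.023). PHGDH was at -0.29 (adjusted p = 0.020), HERPUD1 at -0.28 (adjusted p = 0.034) and DNAJC3 at -0.51 (adjusted p = 0.042). These were the members with an adjusted p under 0.05 in that fit, and none was past the fold limit. The share of all genes with such an adjusted p was not counted there.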
